A study of Mus musculus with 6 samples.

Results

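Cells show pieces of their own proteins to CD8+ T cells on MHC class I molecules, and 10 mouse genes that make, carry, trim and load those peptides are described here. The genes are Nlrc5, Tap1, Tap2, Tapbp, Erap1, Psmb8, Psmb9, Psmb10, Psme1 and Psme2, chosen by name, and each was matched to 1 row of a table of 55414 gene identifiers. All 10 passed the filter on low counts and were among the 14807 genes tested. RNA came from cultures of AY-mICC, mouse cells used here to study cancer of the intrahepatic bile ducts (cholangiocarcinoma). The tested libraries were 3 with a knockdown of Copa (shCopa, where sh commonly stands for short hairpin), and the controls were 3 libraries of the same line (shCon, genotype given as control). Both groups were grown in the same medium with serum and had no other treatment. The labels give neither the hairpin sequences, nor how many hairpins were used, nor whether each replicate was grown separately. The p-values therefore rest on a spread between libraries that may be technical. Copa encodes a subunit of COPI, the coat of vesicles that carry proteins back to the endoplasmic reticulum (ER) out of the Golgi, and the title of the study ties COPI to immunity by CD8+ T cells.

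Peptides for MHC class I are cut in the cytosol by the proteasome. Under interferon, cells replace the catalytic subunits of its core with Psmb8, Psmb9 and Psmb10, which makes the immunoproteasome, and cap it with an activator ring built from Psme1 and Psme2. The transporter formed by Tap1 and Tap2 pumps peptides into the ER, where Erap1 trims them and tapasin (Tapbp) holds empty class I molecules next to the transporter until a peptide fits. Nlrc5 is a transactivator that works at promoters of class I genes and of several of these helpers, and most of the 10 genes are known targets of interferon gamma. Tumour cells that lose this machinery are less visible to T cells.

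Levels are given as CPM, a gene's count over the scaled library size, the totals of estimated counts ran from 19634938 to 24546204, and a gene is said to rise or fall only where edgeR's quasi-likelihood test gave a Benjamini-Hochberg adjusted p under 0.05. Copa itself was at 186, 182 and 187 CPM in shCopa and at 420, 517 and 527 CPM in shCon (log2 fold change -1.40 ± 0.11, SE), so the libraries match their labels. Of 7 markers of bile duct epithelium, 6 averaged over 1 CPM across the 6 libraries, and the list summed to 3881 to 4102 CPM in shCopa and 4960 to 5967 CPM in shCon. Krt7 (log2 -1.44), Krt8 (-0.34), Krt18 (-0.44) and Cdh1 (-0.44) fell, Krt19 and Sox9 did not pass, and Epcam, a common epithelial marker, was at 0.278 CPM in shCopa and 0.598 CPM in shCon. Summed leukocyte markers were at 88.4 to 90.7 CPM in shCopa and 141 to 181 CPM in shCon, nearly all of it Csf1r, the only 1 of 7 that averaged over 1 CPM across the 6 libraries. Ptprc, the pan-leukocyte marker, was at 1.09 CPM in shCopa and 0.0280 CPM in shCon, and Itgax had no count in any library. Hepatocyte markers summed to 22.8 to 24.2 CPM in shCopa and 8.37 to 13.3 CPM in shCon (mostly Alb, 1 of 5 over 1 CPM), fibroblast markers to 168 to 182 CPM in shCopa and 184 to 223 CPM in shCon (mostly Dcn, 3 of 4), and endothelial markers to 1.51 to 3.34 CPM in shCopa and 0.0411 to 0.172 CPM in shCon (0 of 3 over 1 CPM across the 6 libraries, with Kdr at 1.87 CPM in shCopa and 0.0745 CPM in shCon). The part of these markers in the results below was not tested. One library, shCon 1, stood apart from the other controls (Pearson's r on log2 CPM 0.973 and 0.972 with shCon 2 and 3, against 0.990 between those), so results are given with and without it.

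Of the 10 genes, 3 rose (Nlrc5, Tap1 and Psmb8), 1 fell (Tap2) and 6 did not pass the test. Over all genes tested, 18.2% rose and 18.4% fell, so the number called among the 10 is not far from the background. Only Nlrc5 and Tap1 of the 10 differed 2-fold or more. The groups of libraries did not overlap for 7 of the 10, against 54% of all genes. Their median log2 fold change was 0.36, beside -0.01 over all genes. Without shCon 1 all 10 passed, 8 higher and 2 lower, where 28.3% of all genes rose and 27% fell. With offsets for transcript length and GC content 7 rose and 2 fell, where 21.6% of all genes rose and 27.4% fell.

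**Figure D1:**
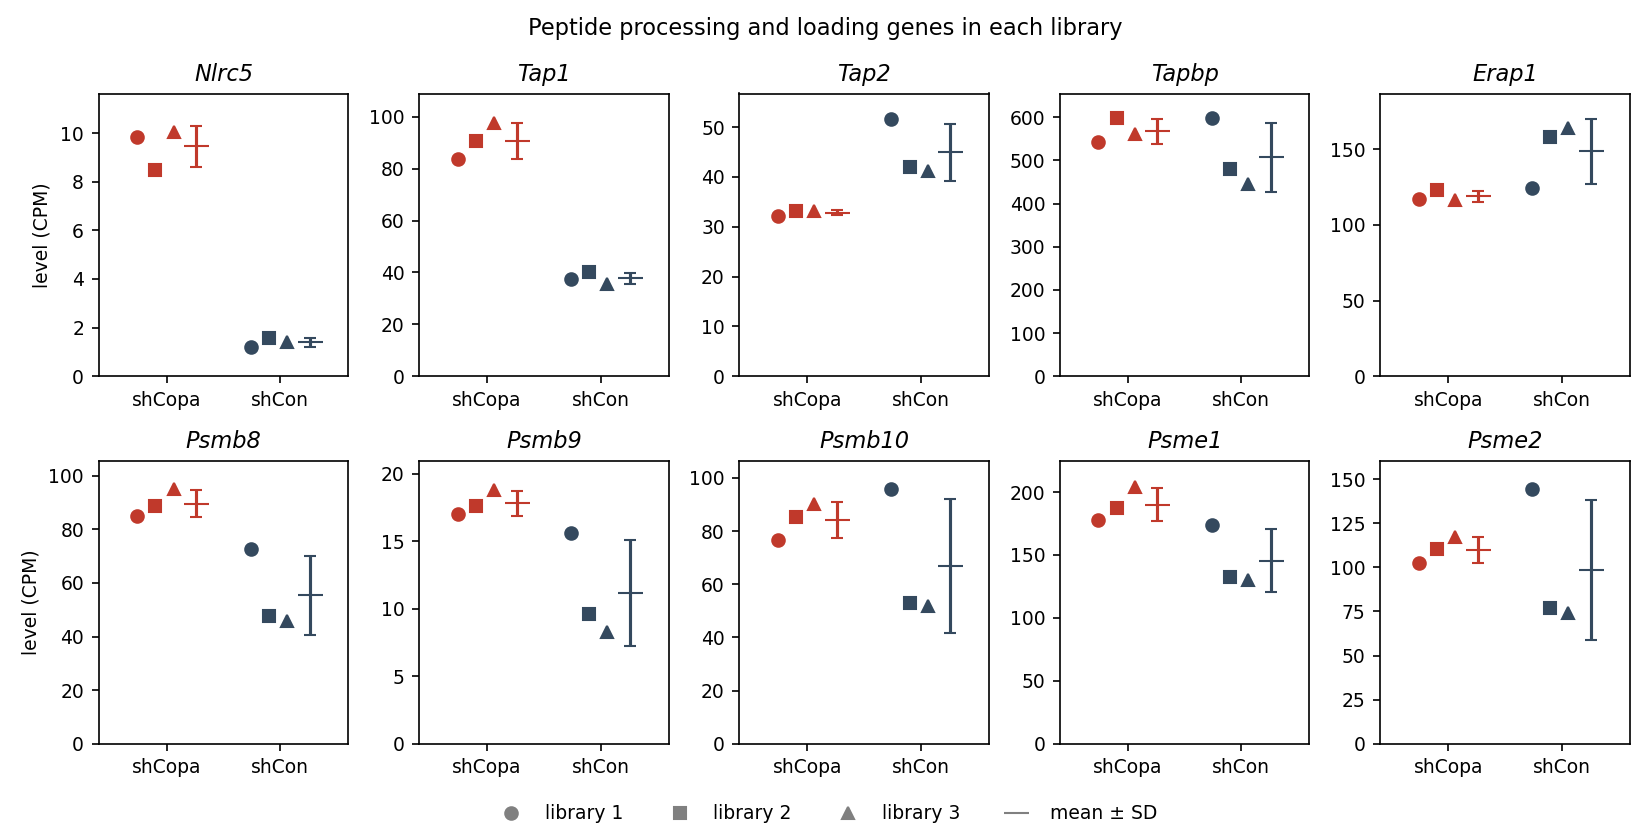
Level in CPM (y axis, from 0) of each of the 10 genes in every library, shCopa (red) left of shCon (dark), with circles, squares and triangles for libraries 1 to 3 and the mean ± SD beside them. Nlrc5 and Tap1 were far above shCon in all 3 shCopa libraries, while for Psmb10 and Psme2 the circle of shCon 1 lay above the shCopa points and the other shCon libraries below them.

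Nlrc5 (ENSMUSG00000074151), the transactivator, was the lowest of the 10 and changed most. It stood at 9.83, 8.47 and 10.1 CPM in shCopa (222, 196 and 199 counts) and at 1.21, 1.59 and 1.40 CPM in shCon (26, 37 and 34 counts). The lowest shCopa library lay far above the highest shCon library, and the spread within either group was small. The fitted difference was 6.73-fold (log2 2.75 ± 0.18, SE; edgeR adjusted p = 7.94e-05), and it was 2.66 on the log2 scale without shCon 1. Per kb of transcript Nlrc5 reached 1.25 ± 0.113 CPM in shCopa and 0.184 ± 0.0251 CPM in shCon (SD, n = 3 each), still less than any of the other 9 in either group.

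The subunits of the peptide transporter moved in opposite directions. Tap1 (ENSMUSG00000037321) was at 83.7, 90.6 and 97.8 CPM in shCopa and at 37.5, 40.1 and 35.5 CPM in shCon. Every shCopa library was at more than 2 times the level of any shCon library, and shCon 1 lay between the other controls. Tap1 rose 2.41-fold (log2 1.27 ± 0.10, SE; edgeR adjusted p = 0.000141), with 1.26 on the log2 scale without shCon 1. Tap2 (ENSMUSG00000024339) was at 32.2, 33.2 and 33.1 CPM in shCopa and at 51.6, 42.0 and 41.3 CPM in shCon. The shCopa libraries were nearly equal and below all controls, of which shCon 1 was the highest. Tap2 fell to 73.1% of control (log2 -0.45 ± 0.11, SE; edgeR adjusted p = 0.0165). Its call held without shCon 1 (log2 -0.35) but was lost without any 1 shCopa library (log2 -0.44 to -0.46, adjusted p from 0.0656 to 0.0707) and with the replicate number as a block (adjusted p = 0.0544).

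Set per kb of transcript, Tap1 and Tap2 were near parity in control cells and not in the knockdown. The ratio of Tap1 to Tap2 was 3.03, 3.18 and 3.45 in shCopa and 0.848, 1.11 and 1.00 in shCon. No shCopa library came near a control, and the means differed 3.27-fold (log2 1.71). In an exact two-sided permutation test over libraries this gave p = 0.1, which is the smallest that 3 against 3 allows, and 0.14 after Benjamini-Hochberg adjustment over the 7 ratios computed. The difference was 1.60 on the log2 scale without shCon 1.

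The loading and trimming genes moved little. Tapbp (ENSMUSG00000024308), tapasin, had the highest level per kb of the 10 in both groups, at 542, 598 and 563 CPM in shCopa and 598, 480 and 444 CPM in shCon. The groups overlapped through shCon 1, and the difference did not pass (log2 0.16 ± 0.13, SE; edgeR adjusted p = 0.351), while without shCon 1 it was 0.29 and passed. Erap1 (ENSMUSG00000021583), the ER aminopeptidase, was at 117, 123 and 117 CPM in shCopa and at 124, 158 and 164 CPM in shCon. All shCopa libraries were below all controls, shCon 1 by only a little. The difference of -0.32 ± 0.12 (log2, SE) missed the threshold (edgeR adjusted p = 0.0714), passed with DESeq2 (adjusted p = 0.0461) and was -0.44 and passed without shCon 1.

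Reads of the immunoproteasome genes were higher in shCopa than in shCon 2 and 3, and shCon 1 lay apart. Psmb8 (ENSMUSG00000024338), the chymotrypsin-like subunit, was at 85.0, 88.9 and 95.0 CPM in shCopa and at 72.5, 47.6 and 45.9 CPM in shCon. The groups did not overlap, with shCon 1 nearest to the knockdown. Psmb8 rose 1.62-fold (log2 0.70 ± 0.18, SE; edgeR adjusted p = 0.02), and 0.94 on the log2 scale without shCon 1. The call was lost without any 1 of the other 5 libraries (log2 0.57 to 0.73, adjusted p from 0.056 to 0.0803).

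Psmb9 (ENSMUSG00000096727), the subunit encoded next to Tap1, was the lowest of the catalytic subunits. It was at 17.0, 17.6 and 18.8 CPM in shCopa and at 15.6, 9.62 and 8.26 CPM in shCon. All shCopa libraries were above all controls, but shCon 1 came close. The difference of 0.68 ± 0.23 (log2, SE) just missed the threshold (edgeR adjusted p = 0.0553) and passed with DESeq2 (adjusted p = 0.0233). Psmb10 (ENSMUSG00000031897), the trypsin-like subunit, was at 76.8, 85.4 and 90.2 CPM in shCopa and at 95.8, 52.8 and 51.8 CPM in shCon. Here shCon 1 was the highest of the 6 libraries and the other controls the lowest, and the difference of 0.33 ± 0.24 (log2, SE) did not pass (edgeR adjusted p = 0.31). Without shCon 1 the differences were 0.99 for Psmb9 and 0.68 for Psmb10, and both passed.

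Psme1 and Psme2 encode the alpha and beta subunits of the activator ring. Psme1 (ENSMUSG00000022216) was at 178, 188 and 204 CPM in shCopa and at 174, 132 and 130 CPM in shCon. The groups did not overlap, by a margin of a few CPM at shCon 1, and the difference of 0.38 ± 0.13 (log2, SE) missed the threshold (edgeR adjusted p = 0.0584; adjusted p = 0.0332 with DESeq2). Psme2 (ENSMUSG00000079197) was at 102, 111 and 117 CPM in shCopa and at 144, 77.1 and 74.1 CPM in shCon. As with Psmb10, shCon 1 was the highest library and the groups overlapped (log2 0.16 ± 0.25, SE; edgeR adjusted p = 0.65). Without shCon 1 the differences were 0.53 for Psme1 and 0.54 for Psme2, and both passed, whereas without shCon 3 that of Psme2 was -0.02. The retrocopy Psme2b had at most 12 counts in a library, so it held few of the reads of Psme2.

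**Figure D2:**
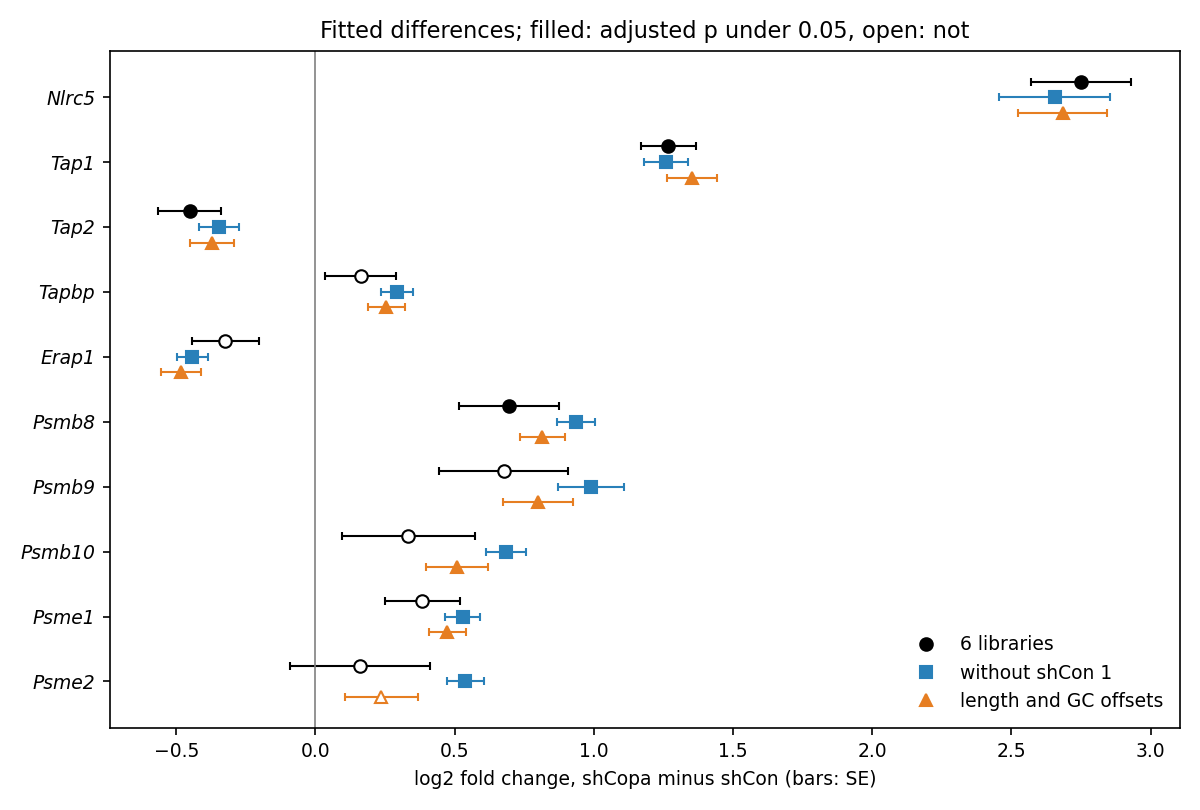
Fitted log2 fold change (x axis, shCopa minus shCon, bars ± SE) of the 10 genes with all 6 libraries (black circles), without shCon 1 (blue squares) and with offsets for transcript length and GC content (orange triangles), filled where the adjusted p was under 0.05. Nlrc5 at 2.75, 2.66 and 2.68 and Tap1 at 1.27, 1.26 and 1.35 hardly moved between fits, while Psmb10 was at 0.33, 0.68 and 0.51 in the same 3 fits.

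The constitutive subunits that Psmb8, Psmb9 and Psmb10 replace shared the rise in shCon 1. Psmb5 was at 76.7, 85.4 and 88.1 CPM in shCopa and at 164, 86.4 and 82.8 CPM in shCon. Psmb6 was at 75.6, 79.3 and 73.5 CPM in shCopa and at 153, 81.7 and 78.0 CPM in shCon. Psmb7 was at 123, 131 and 139.6 CPM in shCopa and at 236, 127 and 133 CPM in shCon. Outside shCon 1 these genes were at nearly the same level in both groups, with log2 differences of -0.025, -0.07 and 0.01 without that library, none of them past the threshold. With all 6 libraries the log2 differences were -0.414, -0.455 and -0.333, and none passed. With the length and GC offsets they were -0.221, -0.297 and -0.341, and Psmb6 passed (edgeR adjusted p = 0.0436). In shCon 1, Psmb5 was 1.94-fold, Psmb6 1.92-fold and Psmb7 1.82-fold above the mean of shCon 2 and 3, beside 1.55-fold for Psmb8, 1.75-fold for Psmb9 and 1.83-fold for Psmb10. The median over all genes tested was 0.993-fold.

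A ratio of an immunoproteasome subunit to the subunit it replaces is taken within 1 library, and in these ratios shCon 1 lay with the other controls. Psmb8 to Psmb5, per kb of transcript, was 0.612, 0.575 and 0.596 in shCopa and 0.244, 0.304 and 0.306 in shCon. Psmb9 to Psmb6 was 0.133, 0.131 and 0.151 in shCopa and 0.0601, 0.0696 and 0.0626 in shCon. Psmb10 to Psmb7 was 0.552, 0.577 and 0.572 in shCopa and 0.359, 0.369 and 0.344 in shCon. In all 3 pairs every shCopa library was above every control, and the constitutive subunit remained the more abundant per kb in every library. The ratios were 2.10-fold, 2.16-fold and 1.59-fold higher in shCopa (log2 1.07, 1.11 and 0.67), each with an exact permutation p = 0.1, the smallest possible, and 0.14 after adjustment over the 7 ratios. Without shCon 1 the log2 differences were 0.96, 1.07 and 0.67. All 3 ratios share the same 6 libraries, so they are not independent of one another.

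**Figure D3:**
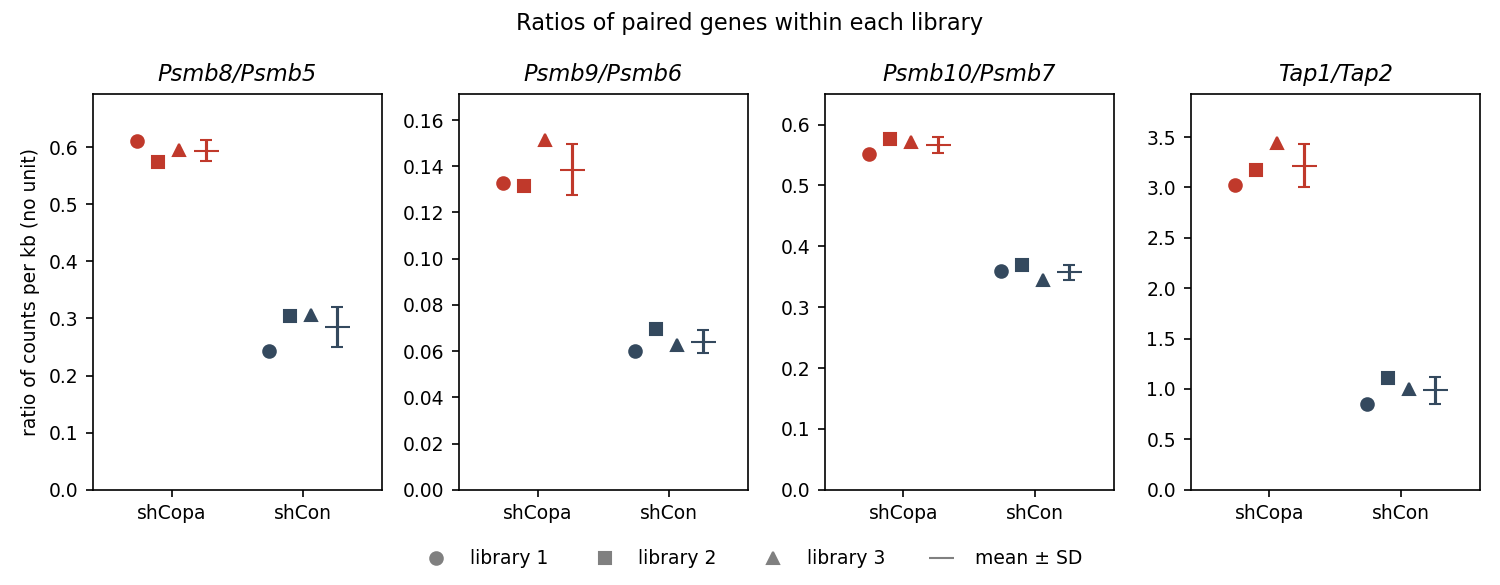
Ratio of counts per kb of transcript (y axis, from 0, no unit) within each library for the immunoproteasome subunits over the subunits they replace and for Tap1 over Tap2, shCopa (red) left of shCon (dark), symbols for libraries 1 to 3 and mean ± SD beside them. In each panel the 3 shCopa libraries lie above the 3 shCon libraries, and shCon 1 (dark circle) is close to the other controls.

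The activator ring gave a different picture. Psme1 to Psme2 per kb was 1.51, 1.47 and 1.51 in shCopa and 1.04, 1.48 and 1.52 in shCon. Apart from shCon 1 the libraries were alike, and the log2 difference of 0.17 (exact permutation p = 0.7) was -0.009 without shCon 1. Psme3, which forms an alternative activator in the nucleus, was at 141, 143 and 146 CPM in shCopa and at 132, 139 and 137 CPM in shCon. Psme4, the single-chain activator, was at 185, 179 and 191 CPM in shCopa and at 142, 180.0 and 187 CPM in shCon. Neither passed (log2 0.08 ± 0.08 and 0.13 ± 0.12, SE; edgeR adjusted p = 0.485 and 0.448), and both turned slightly negative with the length and GC offsets. The ratio of Psme1 to Psme3 was 3.03, 3.14 and 3.34 in shCopa and 3.16, 2.28 and 2.28 in shCon, overlapping through shCon 1 (log2 difference 0.32, exact permutation p = 0.3, adjusted over the 7 ratios 0.35).

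Ordered by level per kb, the 10 genes kept nearly the same sequence in both groups. In shCopa it ran from Tapbp (196 CPM per kb) through Psme1, Psme2, Psmb10, Psmb8, Tap1, Erap1, Psmb9 and Tap2 to Nlrc5, and no neighbours in that order overlapped across libraries. In shCon Tapbp was again first (175 CPM per kb) and Nlrc5 last, but Erap1 stood above Tap1 and Tap2 above Psmb9. By its mean Tap2 also stood above Tap1, but in only 1 of the 3 libraries, shCon 1. There the libraries of Tapbp and Psme1, Psme1 and Psme2, Psmb10 and Psmb8, Psmb8 and Erap1, and Tap2 and Tap1 overlapped. Tap1 was at 12.8 ± 0.773 and Tap2 at 13.1 ± 1.67 CPM per kb in shCon (SD, n = 3 each). Transcript lengths are those of 1 annotated coding transcript per gene, so the order depends on that choice.

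In the mouse genome 4 of the 10 lie side by side in the MHC region of chromosome 17, in the order Psmb9, Tap1, Psmb8, Tap2, and they did not move as 1 block. Tap1 rose, Psmb8 rose less, Psmb9 missed the threshold and Tap2 fell. Psmb9 and Tap1 are transcribed away from each other, and the stretch of DNA between their annotated start sites is shown. Whether either gene depends on this stretch was not tested. In RefSeq (GRCm38.p6) it is chr17:34187331-34187555, given on the strand of Tap1 with the start of Psmb9 at its left end, and capitals mark a CCAAT box and a GC box (GGGCGG on the other strand).
Psmb9-Tap1: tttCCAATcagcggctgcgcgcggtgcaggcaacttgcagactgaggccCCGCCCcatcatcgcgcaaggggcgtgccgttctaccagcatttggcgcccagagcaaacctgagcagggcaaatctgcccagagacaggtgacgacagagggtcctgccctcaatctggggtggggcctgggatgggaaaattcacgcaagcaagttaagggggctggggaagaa
The ratio of Psmb9 to Tap1 per kb was 0.444, 0.426 and 0.421 in shCopa and 0.910, 0.525 and 0.509 in shCon. All shCopa libraries were below all controls, so Tap1 gained on Psmb9 (log2 difference -0.54, exact permutation p = 0.1, adjusted over the 7 ratios 0.14). The difference was -0.27 without shCon 1, which had the highest ratio. A longer Psmb9 transcript in GENCODE M21 overlaps the start of Tap1, so reads may have been divided between these genes, which was not tested. The deposited values of both genes were not whole in any of the 6 libraries. The same held for Erap1 and Psme2, and 7 of the 10 genes had such values in some library.

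Promoter windows, from 250 bases before to 50 after the start, were found in the RefSeq table for 8 of the 10 genes. They were searched on both strands for the interferon-stimulated response element (ISRE, searched as GAAA, any 2 bases, GAAA), the gamma-activated site (GAS, TTCNNNGAA), the CCAAT box (CCAAT), the GC box (GGGCGG) and the NF-kB motif. An ISRE was found in 2 of the 8 genes, Erap1 and Psme1, where 3.44% of all 32851 windows held one. A GAS was found in Psmb8 (8.30% of all windows), a CCAAT box in 3 of the 8 (37.4%), a GC box in 6 of the 8 (35.7%) and an NF-kB motif in 0 of the 8 (4.51%). The CCAAT box and the GC box of Psmb9 and of Tap1 are the same bases, counted for each gene. The percentages are of windows, and the 8 genes had 9 windows. The stretches around the interferon motifs of Erap1, Psme1 and Psmb8 are shown. Erap1 was lower and Psme1 and Psmb8 were higher in every shCopa library than in any control. Such a lack of overlap held for 54% of all genes tested, and of these genes only Psmb8 passed the test. Capitals mark the motif, all are on the plus strand of GRCm38.p6, at chr13:74639839-74639868 for Erap1, chr14:55578493-55578522 for Psme1 and chr17:34198088-34198117 for Psmb8.
Erap1: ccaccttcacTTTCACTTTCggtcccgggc
Psme1: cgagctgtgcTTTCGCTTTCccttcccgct
Psmb8: tcctccgctgTTCCCAGAAgatgccccccc
The motif of Erap1 spans the start site, from base -4 to base 6, that of Psme1 lies at bases 10 to 19 after the start, and that of Psmb8 at -97 to -89. A match is a run of letters, not a shown binding site.

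On either side of the chromosome 17 block lie MHC class II genes. H2-DMb2 and H2-DMb1, which encode chains of the class II loading factor, rose (log2 2.79 ± 0.33 and 1.07 ± 0.24, SE; edgeR adjusted p = 0.000733 and 0.0106), at 1.95 and 4.67 CPM in shCopa and 0.278 and 2.22 CPM in shCon. H2-DMa did not pass (log2 0.33 ± 0.31), and H2-Ob, H2-Ab1 and H2-Aa on the other side averaged under 0.5 CPM in both groups and were not tested. Psme1 and Psme2 lie close together on chromosome 14 with Emc9 between them. Next to Psme2 lies Rnf31, which encodes a subunit of the linear ubiquitin ligase and rose (log2 0.58 ± 0.10, SE; edgeR adjusted p = 0.00401), followed by Irf9, the DNA-binding subunit of an interferon-activated complex, which rose too (log2 1.73 ± 0.13; adjusted p = 0.000129). On the other side Pck2 and Dcaf11 did not pass, and Fitm1 was hardly detected.

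Transcription factors known at class I and immunoproteasome promoters differed among themselves, and of the 14 reported here 3 rose, 3 fell and 8 did not pass, with a median of 0.005 on the log2 scale, where 36.5% of all genes were called. Without shCon 1, 6 rose and 5 fell, where 28.3% of all genes rose and 27% fell. With the offsets 5 rose and 5 fell, where 21.6% of all genes rose and 27.4% fell. Stat2, a mediator of type I interferon signals, rose (log2 1.24 ± 0.17, SE; edgeR adjusted p = 0.0013), as did Irf9 and the NF-kB subunit Nfkb1 (log2 0.55 ± 0.10). Irf1, which drives Tap1, Psmb9 and Nlrc5 under interferon gamma, was at 190.3, 191 and 205 CPM in shCopa and at 192, 186 and 177 CPM in shCon. Its groups overlapped and it did not pass (log2 0.08 ± 0.09, SE; edgeR adjusted p = 0.502), nor did it without any 1 library or under any other setting listed in the closing section. Rfx5, a subunit of the RFX complex to which Nlrc5 binds, did not pass (log2 0.42 ± 0.16; 0.26 and past the threshold without shCon 1), while its partners Rfxap (log2 -1.47 ± 0.40, at 16.6 CPM in shCon 1 and 6.23 and 6.74 CPM in the other controls) and Rfxank (log2 -0.39 ± 0.12) and the CCAAT-binding subunit Nfya (log2 -0.44 ± 0.09) fell.

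The rest of the loading complex showed 1 large difference. Of 6 ER chaperones and quality-control factors of class I assembly, 1 fell and 5 did not pass, and the median log2 fold change was 0.06. Of all genes tested, 18.2% rose and 18.4% fell. Pdia3, the disulfide isomerase that forms a pair with tapasin, was at 197, 191 and 206 CPM in shCopa and at 795, 727 and 767 CPM in shCon. The groups lay far apart (log2 -1.94 ± 0.09, SE; edgeR adjusted p = 3.21e-05), while tapasin itself, Calr (log2 0.19 ± 0.09), Canx (log2 0.20 ± 0.10) and the tapasin-related editor Tapbpl (log2 0.11 ± 0.09) did not pass. Without shCon 1 Calr rose (log2 0.23) and Pdia3, Ganab and Uggt1 fell, where 28.3% of all genes rose and 27% fell. With the offsets Pdia3 and Ganab fell, where 21.6% of all genes rose and 27.4% fell. Most genes of the class I chains themselves rose. Of 9 class I heavy and light chain genes, 8 rose and 1 fell (H2-T23, log2 -1.24), and the median was 1.23. The counts were also 8 and 1 without shCon 1 and with the offsets, beside the shares of all genes given above. B2m was at 1742, 1816 and 2033 CPM in shCopa and at 1033, 829.7 and 780.4 CPM in shCon, and H2-K1 (log2 1.32 ± 0.19), H2-D1 (1.23 ± 0.15) and H2-Q4 (1.86 ± 0.16) rose, with reads that near-identical H2 genes may share.

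**Figure D4:**
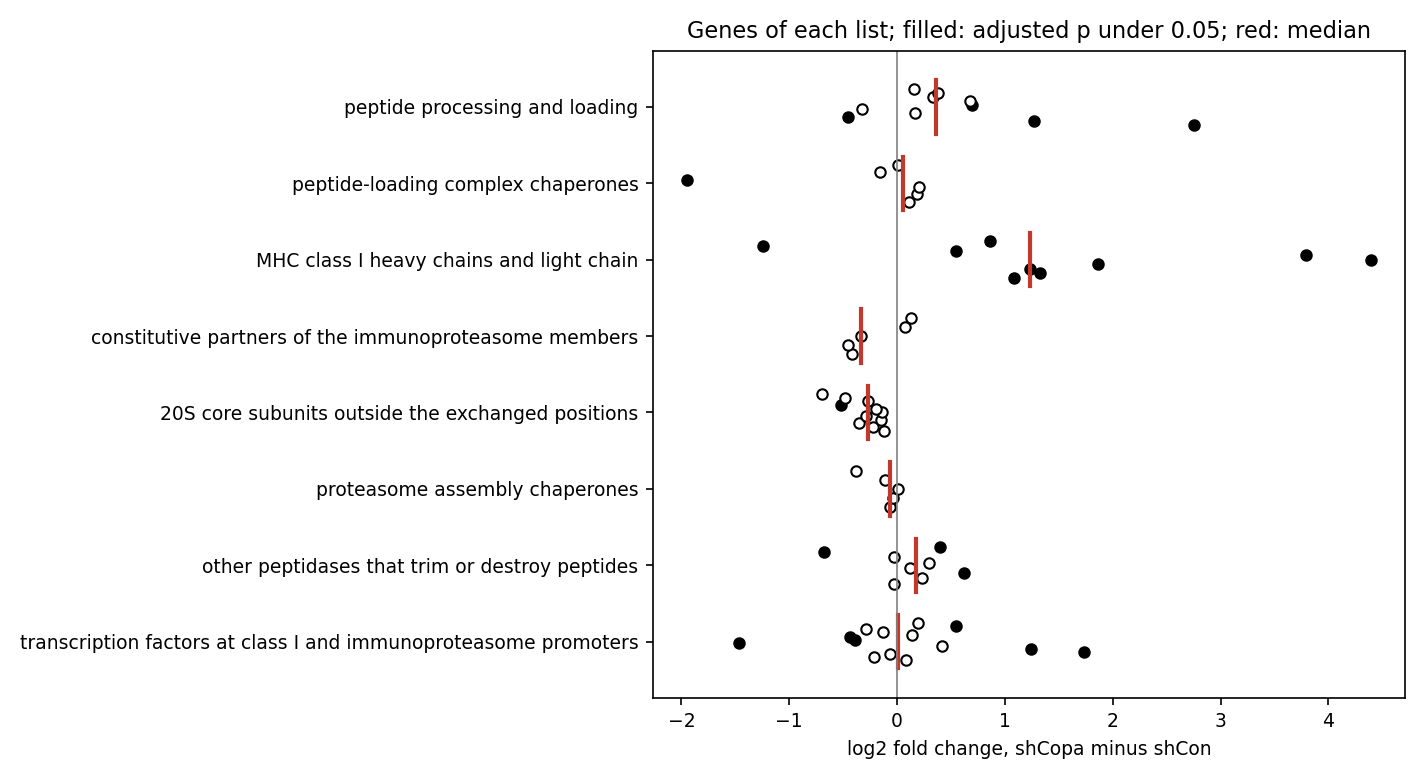
Log2 fold change (x axis, shCopa minus shCon) of the tested genes reported here in the 8 gene groups named on the y axis, filled where the adjusted p was under 0.05, with a red line at the median. Class I chains sit highest at a median of 1.23, and the 10 peptide processing and loading genes at 0.36. Medians were -0.33 for constitutive partners of the immunoproteasome members, -0.27 for core subunits and -0.065 for assembly chaperones, with nearly all points open. Without shCon 1 these medians were 0.008, -0.07 and 0.23.

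Few proteasome core and assembly genes outside the exchanged positions passed the test with all 6 libraries. Of all genes tested, 18.2% rose and 18.4% fell. Of 11 core subunits, none rose and 1 fell (Psmb1, log2 -0.52 ± 0.16, a call lost without any 1 shCopa library and with the replicate block). Their log2 fold changes ran from -0.70 (Psmb4, edgeR adjusted p = 0.0555) to -0.12, with a median of -0.27. Psmb4 passed without shCon 1 and with the offsets. All 11 core subunits were higher in shCon 1 than in the mean of shCon 2 and 3. Without shCon 1 the median was -0.07, with none higher and 4 lower, where 28.3% of all genes rose and 27% fell. With the offsets none was higher and 6 were lower, where 21.6% of all genes rose and 27.4% fell. Of 5 assembly chaperones, none passed (median -0.07), while without shCon 1 the median was 0.23 and Psmg2 rose. Other peptidases that trim or destroy cytosolic and ER peptides were mixed. With 36.5% of all genes called, 2 of these 8 were higher, 1 lower and 5 not past the threshold. Without shCon 1, 5 were higher and 2 lower, and with the offsets 4 were higher and 2 lower, beside the shares of all genes given above. Tpp2, a large cytosolic peptidase that acts after the proteasome, was at 169.6, 164.5 and 175 CPM in shCopa and at 95.0, 114 and 123 CPM in shCon (log2 0.62 ± 0.11, SE; edgeR adjusted p = 0.00487). Nln, an oligopeptidase, rose (log2 0.40 ± 0.11, a call lost without any 1 shCopa library), and Lap3, the leucine aminopeptidase, fell (log2 -0.68 ± 0.11), at 93.5, 100.4 and 100.5 CPM in shCopa and 180.5, 141.5 and 149 CPM in shCon.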

How the data were processed

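The authors deposited estimated counts per Ensembl gene for 6 libraries, with 10.6% to 11.9% of values in a library not whole. The tools listed in the submitters' processing notes are DESeq2, featureCounts, HTSeq, HISAT2 2.0.5 and Trimmomatic, and the build is GRCm39. Which of them made the counts, with which annotation and strandedness, is not stated there. Estimated counts were rounded. Symbols came from a table of Ensembl gene names (52081 identifiers matched). For 67 symbols on more than 1 identifier, the one with the higher mean was used.

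Differences (shCopa minus shCon) came from edgeR 4.0.16 under R 4.3.3 (TMM scaling, filterByExpr, robust quasi-likelihood F test, Benjamini-Hochberg adjustment over 14807 genes, threshold 0.05). The test was also run on simulated data. Those data had far fewer changed genes and no outlying library, so that run cannot show how the calls fare under these conditions. Biological coefficient of variation was 0.165. Ratios within a library used counts plus 0.5 per kb of the longest coding transcript in M21 and exact permutation tests. Alternatives were other scaling factors, filters and thresholds, DESeq2 1.42.0, limma-voom (limma 3.58.1), a replicate block, offsets for trends on transcript length and GC content, and each library left out. Deviations of same-numbered libraries from their group means had r of -0.162, -0.0583 and -0.114. With 3 libraries per group these values cannot show whether the libraries were paired. Promoters are from RefSeq, GRCm38.p6; no coordinates of GRCm39 are given.

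The members, lists, ratios and alternatives were chosen with earlier results of these data known. Named genes were the 10 members; fixed partners and regulators; in each list the called genes of smallest adjusted p, up to 3; 3 neighbours on each side of the 2 clusters; and the 5 genes nearest to Nlrc5. H2-T23, Rfxap, Rfxank, Nfya, Nfkb1, Ganab, Uggt1, Psmb4 and Psmg2 were named after their values were seen. One transcription factor and 1 marker of the lists are not reported here.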

Additional observations from a re-analysis of the deposited data

How the results depend on the processing

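Nlrc5 and Tap1 stayed called under all 16 alternatives, each library left out included. The number of the 10 genes called higher was 3, and 5 with upper quartile scaling or DESeq2 and 7 with the length and GC offsets, with or without the replicate block, 4 with no filter or limma-voom, and 2 at a threshold of 0.01; the number lower was 1, and 2 with DESeq2 and with the offsets with or without the block, but 0 with the replicate block alone or a threshold of 0.01. With 1 library left out, 2 to 8 were higher and 0 to 2 lower, the upper ends without shCon 1. The genes called over the whole table were 5411, 3177 at a threshold of 0.01, and 3533 to 8439 with 1 library left out. The ratio of Psme1 to Psme2 ranged from -0.009 (without shCon 1) to 0.263 on the log2 scale; the other 6 ratios kept their direction in every alternative. The uncalled genes that changed sign were Psme2 (-0.020 without shCon 3 to 0.538 without shCon 1), Psmb7 (-0.499 without shCon 2 to 0.011 without shCon 1), and Psme3 (-0.014, and -0.013 with the replicate block) and Psme4 (-0.033 with or without the block) with the offsets. The causes of these changes between settings were not tested. The labels do not say whether libraries of the same number share a culture or day. With the replicate number as a block, 3903 genes were called. Among the 10 genes Nlrc5 had the fewest counts, 26 to 37 in a control library.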

Other observations

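The 5 genes whose profile over the 6 libraries was nearest to that of Nlrc5, by root mean square difference of log2 CPM after centring on the shCon mean, were Hoxc13 (0.148), Rtp4 (0.155), Myl9 (0.158), Pappa2 (0.162) and Gm7160 (0.164). Rtp4, an interferon-induced gene, was at 83.5, 89.7 and 107 CPM in shCopa and at 15.1, 17.0 and 14.7 CPM in shCon. Its level per kb was far above that of Nlrc5. The fitted difference of Rtp4 was log2 2.58 ± 0.13 (SE), against 2.75 ± 0.18 for Nlrc5. A similar difference is what this distance picks for, so it is no separate result. Hoxc13, a homeobox gene, had 26, 19 and 21 counts in shCopa and 2 counts in each shCon library, so its nearness rests on few reads. Its fitted difference was larger than that of Nlrc5 (log2 3.46 ± 0.41, SE).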
